A study of Mus musculus with 18 samples.

Results

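The regions described here are 1 kb stretches of the mouse autosomes whose CpG methylation was low in the third of 3 libraries made with wild-type DNMT1. The assay was eRRBS, an enhanced form of reduced representation bisulfite sequencing in which DNA is cut with restriction enzymes, unmethylated cytosine is converted by bisulfite, and the fragments are sequenced. A tile was usable if it held at least 3 CpGs with at least 5 reads in all 18 libraries, and its level is the share of reads that were methylated, summed over those CpGs. Members were the tiles in which WT replicates 1 and 2 both lay at least 20 percentage points above WT replicate 3. The rule found 1829 of 154801 usable tiles (1.18%), which hold 10509 of 1121282 usable CpGs. Only a tile at 20% or more in WT replicates 1 and 2 could have passed, and members were 1.47% of those 124163 tiles. The members' WT levels chose them, so they are given as a description with no test.

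All libraries came from mouse embryonic stem (ES) cells that lack their own Dnmt1, grew in serum with leukemia inhibitory factor on gelatin, and were transfected with the pPyCAGIP expression vector and selected with puromycin. The vector carried WT DNMT1 or a mutant in which tryptophan residues are replaced by alanine: W796A, W465A, W464A/W465A, W465A/W796A or W464A/W465A/W796A. Each of these 6 groups has 3 biological replicates. Several stable lines were made per group, and the labels do not say whether replicates of a group were different lines, so p-values measure only the spread between these libraries. Cells with the empty vector were not analysed here, no expression was measured against which to check the cell type, and a level averages over all cells of a library.

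DNMT1 copies CpG methylation to the new DNA strand after replication, and without it methylation is lost as cells divide. Its replication foci targeting sequence, which holds W464 and W465, and its first BAH domain, which holds W796, read marks on histones. Interspersed repeats, many of them retrotransposons, carry much of the CpG methylation of the mouse genome, and in ES cells several classes also depend on other silencing enzymes. A repeat with near-identical copies is also hard to read, because a short bisulfite read can match several places.

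Some members were made of highly repeated sequence, and others were unique in the genome. To show the repeated sequence, the 32 bases centred on each usable CpG were searched on both strands of the 21 GRCm38 chromosomes. Scaffolds outside them were not searched, so copies in the genome are here counts on these chromosomes. The 4 sequences below are among the 6 found in the most members, chosen after the values were seen, and the other two overlap them. The central CpG is in capitals.
context A: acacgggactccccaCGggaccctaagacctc
context B: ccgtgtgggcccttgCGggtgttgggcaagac
context C: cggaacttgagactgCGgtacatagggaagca
context D: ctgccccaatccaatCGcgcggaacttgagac
Context A occurs 4430 times in the genome, context B 3317 times, context C 2640 times and context D 2539 times. Context A was usable in all 18 libraries at 798 places, and 290 of these (36.3%) lay in 238 members. Context B was usable at 637 places and 38.2% of them lay in members. Of the 1060 tiles that could have passed and held any of the 6 contexts, 387 (36.5%) were members. Such tiles made up 21.2% of members and 0.854% of tiles that could have passed.

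The windows of 300 bases below show the member tiles that the results below turn on, with every CpG in capitals, from the RefSeq GRCm38 sequence. The first opens a run of 6 adjacent members, the second and the third belong to the deepest members and the fourth to the members with the largest gap.
First tile of the run 153095 bp from Nup35, chr2:80812701-80813000, plus strand: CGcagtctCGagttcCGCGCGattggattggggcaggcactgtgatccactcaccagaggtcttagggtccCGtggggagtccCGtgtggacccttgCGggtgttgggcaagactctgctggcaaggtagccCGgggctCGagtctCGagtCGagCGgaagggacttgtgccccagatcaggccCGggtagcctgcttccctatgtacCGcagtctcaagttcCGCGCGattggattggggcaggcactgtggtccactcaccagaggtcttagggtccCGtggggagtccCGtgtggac
Tile nearest Castor2, chr5:134028497-134028796, plus strand: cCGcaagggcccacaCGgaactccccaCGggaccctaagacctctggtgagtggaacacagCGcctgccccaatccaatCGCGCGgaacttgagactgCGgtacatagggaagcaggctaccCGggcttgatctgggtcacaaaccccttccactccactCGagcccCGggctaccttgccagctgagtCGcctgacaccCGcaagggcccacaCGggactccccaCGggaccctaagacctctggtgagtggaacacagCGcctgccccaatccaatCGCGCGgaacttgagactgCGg
Tile in a Zp3r intron, chr1:130600178-130600477, plus strand: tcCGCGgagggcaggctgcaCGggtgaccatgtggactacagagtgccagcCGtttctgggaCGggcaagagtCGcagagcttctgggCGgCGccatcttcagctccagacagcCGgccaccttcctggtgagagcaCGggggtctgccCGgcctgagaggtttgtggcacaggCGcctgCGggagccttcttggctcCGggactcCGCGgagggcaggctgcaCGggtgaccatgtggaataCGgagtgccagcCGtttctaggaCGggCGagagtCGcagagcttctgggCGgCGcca
Tile nearest Chordc1, chr9:18009058-18009357, plus strand: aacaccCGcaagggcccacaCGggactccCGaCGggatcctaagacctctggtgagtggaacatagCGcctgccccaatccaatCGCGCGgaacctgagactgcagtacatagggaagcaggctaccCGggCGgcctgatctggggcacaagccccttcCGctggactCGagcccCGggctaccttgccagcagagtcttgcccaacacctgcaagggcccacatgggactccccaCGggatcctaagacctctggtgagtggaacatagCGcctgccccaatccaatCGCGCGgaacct
These windows hold 20, 20, 24 and 18 CpGs, and every base of each is soft-masked. The first held 5 exact matches of the 6 contexts and the second 7. The windows in Zp3r and near Chordc1 held 0 exact matches. Windows with few mismatches to a context were not counted.

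Soft-masking, lower-case letters in the RefSeq reference, marks interspersed and simple repeats but not their class. Members had a median soft-masked share of 34.4%, against 16.9% in tiles that could have passed and 15.0% in all usable tiles. The word repeat-rich therefore describes some of the members only. Of the 1829 members, 550 (30.1%) were at least 75% soft-masked, against 5.22% of tiles that could have passed. A further 525 were 25% to under 75% soft-masked. The remaining 754 members (41.2%) were under 25% soft-masked, against 65.9% of tiles that could have passed. The share of tiles that were members rose with masking, from 0.922% of tiles under 25% masked to 5.68% of tiles 75% to under 100% masked and 16.7% of fully masked tiles, where 276 of 1653 were members.

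Copy number and CpG density gave the same order. Where the median 32-base context of a tile was unique in the genome, 0.9502% of tiles that could have passed were members (1083 members). Above 1000 copies it was 19.3%, with 324 of 1678 tiles. Of tiles with at least 40 reference CpGs, 15.2% were members, against 0.886% of tiles with fewer than 10. Members at least 75% masked had a median of 38 CpGs per kb, 6 MspI sites (CCGG) and a GC content of 55.1%. All equally masked tiles that could have passed had medians of 21 CpGs, 3 MspI sites and 47.9%. The median context had 681 genome copies in these members, against 17 in the equally masked tiles. Of these members, 78.9% held a usable CpG whose longer context, 50 bases on either side, occurs again exactly in the genome, against 40.3% of equally masked tiles. Members under 25% masked had medians of 15 CpGs per kb, 1 MspI site and 48.1% GC, against 16, 1 and 49.1% in equally masked tiles. The median context had 1 copy in both, and 1.46% of these members held a CpG with a repeated longer context, against 0.537%.

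Depth split the kinds as well. Members had 15 to 2451 reads per library, and a gap from few reads is uncertain by counting alone. Among tiles under 25% masked, the share of members fell from 1.64% below 30 reads in the shallowest WT library to 0.331% at 200 reads or more. Among fully masked tiles it rose instead, from 11.9% to 33.9%. At least 50 reads in every WT library left 692 members, whose median masked share was 82.8% against 15.0% in tiles of that depth that could have passed.

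**Figure D1:**
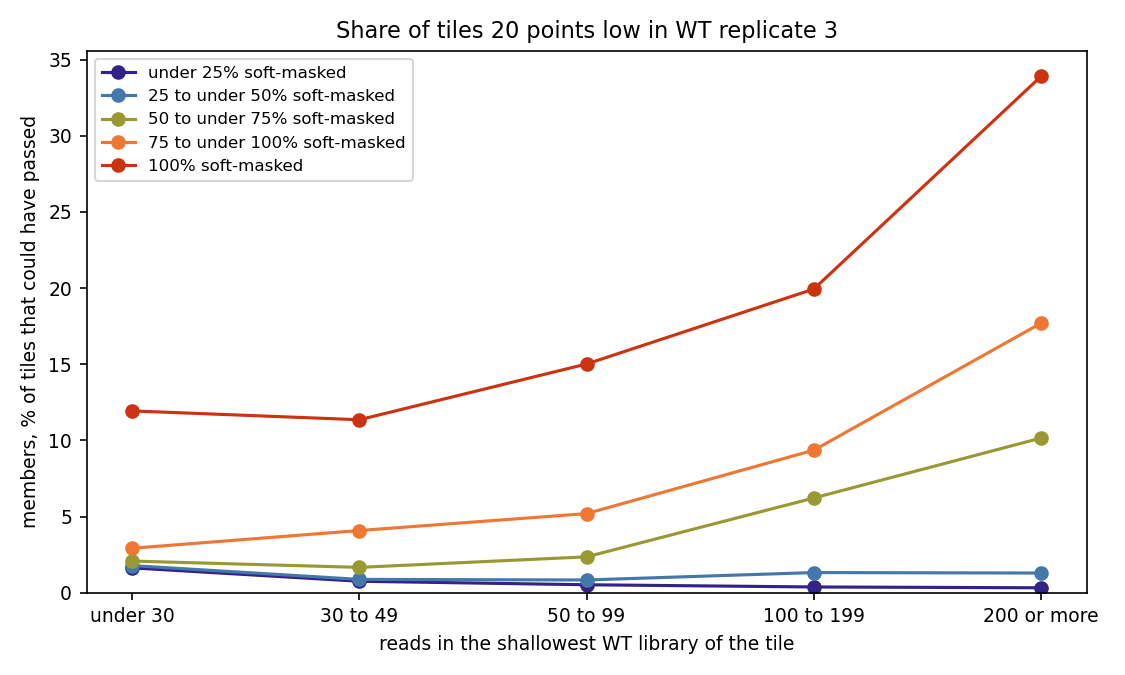
Share of tiles that were members (vertical axis, % of tiles that could have passed) by reads in the tile's shallowest WT library (horizontal axis), 1 line per class of soft-masked share. The line for fully masked tiles climbs from 11.9% to 33.9% and the line for tiles under 25% masked falls from 1.64% to 0.331%.

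Reads on the members were not scarce in WT replicate 3 alone. The median number of reads in members at least 75% masked was 1.27 to 1.85 times that of all equally masked tiles that could have passed in every one of the 18 libraries, and 1.74 times in WT replicate 3. In members under 25% masked, against equally masked tiles, it was 0.708 times in WT replicate 3, the lowest of the 18 libraries, and 0.750 to 0.863 times in the others.

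The same 20-point rule was applied to each library against the other two of its group. It found 27471 tiles for WT replicate 1 and 53914 for W796A replicate 1, libraries whose whole level was low, and 34 to 7517 for the others. WT replicate 3 did not have a low level as a whole: its mean over tiles that could have passed was 77.8%, above 65.2% in WT replicate 1 and below 81.0% in WT replicate 2. Of the tiles it found in WT replicate 3, 30.1% were at least 75% masked. In the 17 other libraries that share was 1.67% to 8.82%. In WT replicate 3, 8.49% of tiles at least 75% masked passed and 0.922% of tiles under 25% masked. In WT replicate 1 the order was the other way, with 11.04% and 22.4%. These counts describe libraries and were not tested.

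CpGs with too few reads to be usable played no part in the rule, and member tiles hold 32532 of them. In members at least 75% masked, pooling the reads of 16406 such CpGs gave 52.6% in WT replicate 1, 70.3% in WT replicate 2 and 36.4% in WT replicate 3. WT replicate 3 was again the lowest, by 16.2 points. In all equally masked tiles that could have passed the 3 pooled levels were 61.6%, 75.9% and 63.5%. In members under 25% masked, 9230 such CpGs gave 49.7%, 71.4% and 57.2%, and here WT replicate 3 was not the lowest. Their levels in all tiles under 25% masked that could have passed were 61.6%, 78.3% and 75.1%. These CpGs share their libraries with the rule, and some share fragments with the CpGs it used, so the pooled levels are a description.

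Levels of the members were then followed through the mutant libraries, which the rule did not use. With W796A the mean over the 1829 members was 37.4%, 60.4% and 50.02% in replicates 1 to 3, a mean of 49.3% ± 11.5 (SD, n = 3). Tiles that could have passed had 59.4%, 84.8% and 78.7%, or 74.3% ± 13.2 (SD, n = 3). Each W796A library was thus lower at the members, by 22.0, 24.4 and 28.7 points. With W465A/W796A the members had 53.6%, 39.1% and 45.8%, or 46.2% ± 7.26 (SD, n = 3), and tiles that could have passed had 60.3%, 52.7% and 52.7%, or 55.2% ± 4.36 (SD, n = 3). The members were lower by 6.64, 13.6 and 6.95 points, less than in any W796A library. The groups W796A and W465A/W796A overlapped at the members.

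In the other mutants the members were low, as was the rest of the genome. With W465A they had 28.8%, 17.7% and 18.3%, a mean of 21.6% ± 6.27 (SD, n = 3), against 32.3% ± 6.90 (SD, n = 3) in tiles that could have passed. The level with W464A/W465A was 16.2% ± 1.92 (SD, n = 3) against 23.6% ± 2.87 (SD, n = 3). With W464A/W465A/W796A it was 17.8% ± 2.93 (SD, n = 3) against 23.5% ± 2.88 (SD, n = 3). The WT levels of 62.9%, 73.3% and 34.1% are those that the rule used.

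Masked and unique members differed in the order of W796A and W465A/W796A. Members at least 75% masked had 26.9%, 46.6% and 34.2% with W796A and 52.0%, 35.9% and 46.3% with W465A/W796A. Means were 35.9% ± 9.94 (SD, n = 3) and 44.7% ± 8.15 (SD, n = 3), with overlapping libraries. Members under 25% masked had 45.0%, 70.5% and 61.1% with W796A and 55.3%, 42.0% and 46.3% with W465A/W796A, so that the order of the means was the other way, 58.9% ± 12.9 (SD, n = 3) above 47.9% ± 6.76 (SD, n = 3). Over the 6478 tiles at least 75% masked that could have passed, members included, W796A had 66.3% ± 12.6 (SD, n = 3) and W465A/W796A 50.2% ± 4.5 (SD, n = 3). With W465A, W464A/W465A and the triple mutant the members at least 75% masked had 12.8% to 24.8% in the 9 libraries.

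**Figure D2:**
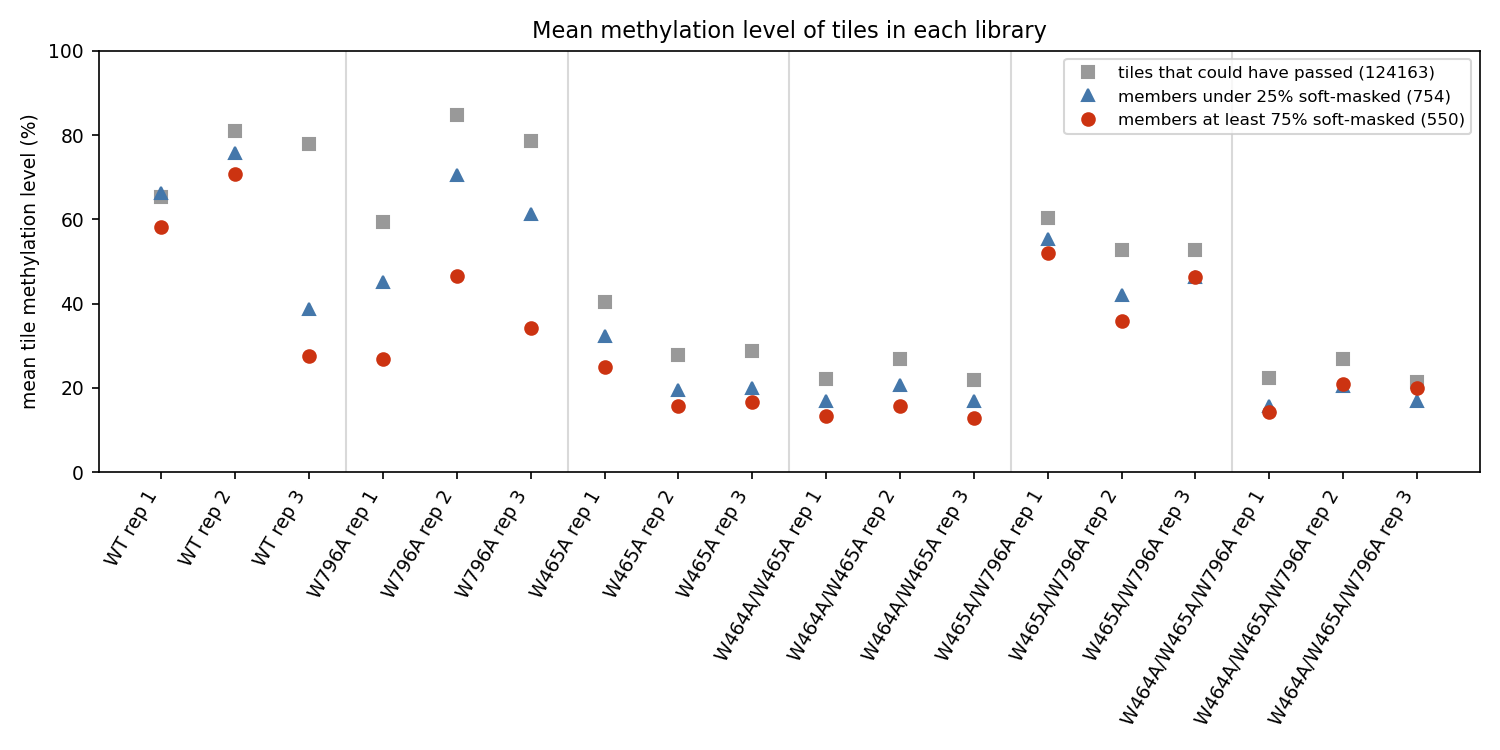
Mean tile methylation level (vertical axis, %) in each of the 18 libraries (horizontal axis) for tiles that could have passed (squares), members under 25% soft-masked (triangles) and members at least 75% soft-masked (circles). The circles lie between 26.9% and 46.6% in W796A, where the squares lie between 59.4% and 84.8%, and between 35.9% and 52.0% in W465A/W796A. The WT points were used to choose the members.

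Tiles were also grouped by sequence alone, with members left in. The 1764 usable tiles with a median context of more than 1000 copies had 49.6%, 67.6% and 45.4% in WT replicates 1 to 3. Tiles with unique contexts, 143982 in all, had 52.5%, 66.7% and 63.7%. Between these classes, tiles of over 100 and up to 1000 copies had 60.7%, 75.96% and 63.6%, and tiles of 2 to 100 copies had 63.2%, 76.9% and 72.9%. With members left in, WT replicate 3 was the lowest WT library above 1000 copies and in none of the other 3 classes. Of the tiles above 1000 copies, 324 were members, with 54.95%, 67.5% and 24.9% in WT replicates 1 to 3. With these members taken out of the class mean, WT replicate 3 would no longer be the lowest. The order therefore rests on tiles that the rule chose and is not read as a trait of high-copy sequence. The mutant levels of the class were not examined without its members. In the high-copy tiles W796A had 34.6%, 55.7% and 46.4%, or 45.6% ± 10.6 (SD, n = 3), and W465A/W796A had 48.9%, 36.5% and 42.9%, or 42.8% ± 6.20 (SD, n = 3). In the unique tiles the means were 61.3% ± 11.1 (SD, n = 3) and 45.0% ± 3.61 (SD, n = 3). The contexts printed above were picked for being found in members, so their WT levels partly repeat the rule. Counted as single sites, the 798 usable copies of context A had pooled levels of 38.5%, 63.4% and 23.8% in WT, 16.6%, 35.2% and 21.2% in W796A, and 43.3%, 27.4% and 38.8% in W465A/W796A. With W465A they had 15.2%, 7.94% and 8.69%, with W464A/W465A 5.80%, 8.32% and 5.85%, and with the triple mutant 8.03%, 11.3% and 12.04%. Each of these levels rests on 10761 to 36585 reads.

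Differences between mutants were tested in every usable tile with a quasi-binomial model over the 15 mutant libraries, leaving out the WT libraries that the rule used. A tile was called at a Benjamini-Hochberg adjusted p under 0.05 over all 154801 tiles and a difference of at least 10 points in pooled level. The contrasts share the W465A and the W465A/W796A libraries, so their calls are not independent of each other.

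Against W796A, which lacks the W465A substitution, W465A/W796A was lower in many tiles of the genome but not in the same share of members. Of all tiles, 24.8% were called lower in W465A/W796A than in W796A and 0.238% higher. Of the 1829 members, 154 (8.42%) were called lower and 181 (9.90%) higher. The members thus supplied 181 of the 368 tiles called higher, or 49.2%. Their median difference was -3.19 points, against -16.5 over all tiles and -19.0 over tiles that could have passed. In 165 members (9.02%) every W465A/W796A library lay above every W796A library, against 0.411% of all tiles. The reverse held in 230 (12.6%), against 34% of all tiles. The higher calls fell to 65 without W465A/W796A replicate 3, 76 without W465A/W796A replicate 1, 91 without W796A replicate 3 and 49 with limma, where 0.0788%, 0.0833%, 0.104% and 0.0724% of all tiles were called. The lower calls were 534 without W796A replicate 1 (65.2% of all tiles), 23 without W796A replicate 2 (5.17%), 55 without W796A replicate 3 (10.9%), 57 without W465A/W796A replicate 2 (11.1%) and 46 without W465A/W796A replicate 3 (8.13%).

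Higher calls outnumbered lower calls in members at least 75% masked, and the reverse held in members under 25% masked. Calls in members 25% to under 75% masked were not counted apart. Of the 550 members at least 75% masked, 132 (24.0%) were called higher, against 3% of all equally masked tiles, and 17 (3.09%) lower, against 31.5%. Their median difference was 11.04 points, while it was -18.2 over all equally masked tiles. Of the 754 members under 25% masked, 10 (1.33%) were called higher, against 0.0608%, and 92 (12.2%) lower, against 24%. Their median difference was -11.99 points, against -15.7.

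The contrast also followed the size of the WT gap, below the threshold of the rule as well as above it. The gap here is how far WT replicate 3 lay below the lower of WT replicates 1 and 2. Where WT replicate 3 lay above that lower level, tiles at least 75% masked had a mean W465A/W796A minus W796A difference of -22.3 points (4371 tiles). With a gap under 10 points it was -11.4 (980 tiles), and from 10 to under 20 points, still outside the rule, it was -0.61 (577 tiles). In members it was 6.21 points for gaps from 20 to under 30 (322 tiles) and 12.5 for gaps of 30 or more (228 tiles). W796A moved most across these bins, from 74.9% to 34.0%, and W465A/W796A went from 52.6% to 46.5%. Among tiles under 25% masked the difference stayed negative in every bin, from -19.8 to -8.59 points. For correlations the gap was taken as the mean of WT replicates 1 and 2 minus WT replicate 3. Pearson's r between this gap and the difference was 0.692 across 6478 tiles at least 75% masked. It was 0.253 across 81805 tiles under 25% masked. The rule chose the members by the WT gap, and the correlations include them, so the relation is a description. Tiles are not independent replicates, since they share the same 9 libraries and repeated sequence, so no p is given. Same-numbered WT and W796A libraries deviated together across tiles, with r of 0.142 to 0.263, against at most 0.0596 between different numbers, and the part of this in the relation was not tested. With at least 50 reads in every WT library r was 0.785 in 3424 and 0.365 in 29336 tiles.

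**Figure D3:**
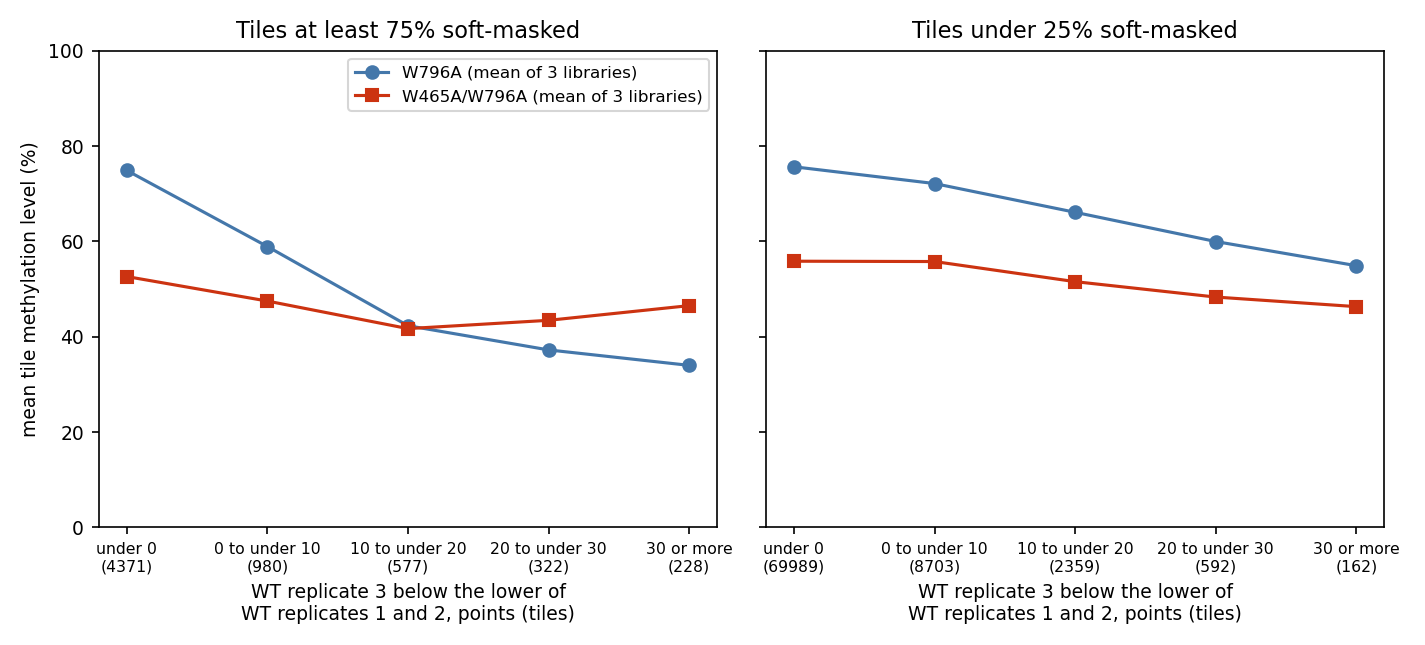
Mean tile methylation level (vertical axis, %) of W796A (circles) and W465A/W796A (squares), each the mean of 3 libraries, by how far WT replicate 3 lay below the lower of the other WT libraries (horizontal axis, points, with the number of tiles). In tiles at least 75% masked the lines cross, from 74.9% against 52.6% to 34.0% against 46.5%. In tiles under 25% masked W796A stays above W465A/W796A.

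Against W465A, which lacks the W796A substitution, W465A/W796A was higher in many members and in many other tiles. It was called higher than W465A in 955 members (52.2%), against 29.7% of all tiles. Of the members at least 75% masked 386 (70.2%) were called higher, against 53.3% of all equally masked tiles, and of those under 25% masked 316 (41.9%), against 26.9%. Among tiles that could have passed the shares were nearer, 35.85% in all, 54.0% at least 75% masked and 34.6% under 25% masked. In 64.5% of members every W465A/W796A library lay above every W465A library. That held in 60.8% of tiles that could have passed and 52.1% of all tiles. The median difference was 24.9 points in members, 20.2 in all tiles and 23.1 in tiles that could have passed. No member was called lower, against 0.00323% of all tiles, none was lower at an unadjusted p under 0.05, and limma called 0 lower. Leaving out any of 4 libraries lowered the count by over 1.5 times, and with it the share over all tiles. With W465A replicate 3 left out, 0 members and 0% of all tiles were called, and with W465A/W796A replicate 1 left out, 0 members and 0.000646%. With W465A replicate 2 left out, 369 members and 6.42% of all tiles were called, and with W465A/W796A replicate 3 left out, 615 members and 17.5%.

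No member was called in the other contrasts, where 0% of all tiles were called in either direction. For W464A/W465A against W465A, 129 members were lower and 2 higher at an unadjusted p under 0.05 in the quasi-binomial test. Limma called 0 in either direction. The median difference was -4.88 points in members, -6.2 over all tiles and -8.47 over tiles that could have passed. For W464A/W465A/W796A against W464A/W465A, 35 members were higher and 7 lower at that threshold, and limma called 0 in either direction. The median difference was 1.53 points in members, -0.073 over all tiles and -0.384 over tiles that could have passed. The share of all tiles at that unadjusted threshold was not counted in either contrast. These counts are therefore not read as a trait of the members. Counts of 0 do not show that the levels were the same.

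Members lay on all 19 autosomes, from 43 on chromosome 19 to 148 on chromosome 2. As a share of tiles that could have passed they ranged from 0.973% on chromosome 11 to 2.28% on chromosome 3. By GENCODE annotation 869 members (47.5%) were intergenic, 528 (28.9%) lay in introns of protein-coding genes, 255 (13.9%) overlapped an exon in a gene body and 140 (7.65%) a promoter, taken as 500 bp either side of a start. Another 37 overlapped exons outside protein-coding genes. Exons of genes of any type were counted. Of tiles that could have passed 35.7% were intergenic and 20.8% exonic. Of members at least 75% masked 432 (78.6%) were intergenic, close to the 79.4% of equally masked tiles. In the same class 2 overlapped an exon in a protein-coding gene body. The median distance of these masked members to the nearest protein-coding gene was 71640 bp, against 41710 bp for equally masked tiles. They lay in CpG-poor surroundings: CpGs made up a median of 0.665% of the 100 kb around them, as around equally masked tiles, against 1.22% around members under 25% masked.

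Gene families were counted by symbol, beside the 1.47% of all tiles that could have passed. Of 10 families, only Zfp zinc finger genes, with 18 of 914 tiles that could have passed (1.97%), and protocadherin (Pcdh) genes, with 1 of 89, held members in a gene body. Olfactory receptor (Olfr) genes had 0 of 94 and Hox genes 0 of 27. By nearest gene, 17 of 553 tiles (3.07%) nearest an Olfr gene, 6 of 174 (3.45%) nearest a Vmn1r vomeronasal receptor gene and 14 of 229 (6.11%) nearest a Pcdh gene were members. Over the 10 families the share ran from 0 in Klr and Hox to that of Pcdh.

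Most members had no other member near them, but unusable tiles could not be members. How many members had a usable neighbour was not counted. Joining members that start at most 10 kb apart gave 1707 groups, of which 1603 were single tiles, 94 were pairs and 10 held 3 or more. Only 226 members (12.4%) were in a group of more than 1, and the largest held 6. Adjacent tiles were the exception. Of tiles that could have passed directly beside a member, 28.4% were members, and 60.6% of those at least 75% masked. At 2 to 5 kb from a member the share was 3.00%, at 6 to 10 kb 1.45%, and beyond 100 kb 1.32%. The 71 masked tiles beside a member that were not members themselves had mean levels of 48.1%, 69.2% and 40.9% in WT replicates 1 to 3.

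The largest groups were runs of nearly continuous repeat far from genes. The run at chr2:80812001-80818000 has 6 members in its 6 usable tiles, at least 90.6% masked, and lies 153095 bp from Nup35, which encodes a nuclear pore protein. Its mean levels were 55.6%, 68.1% and 23.6% in WT, 18.01%, 42.5% and 14.02% in W796A, and 59.5%, 40.3% and 57.2% in W465A/W796A. With W465A they were 18.3%, 6.86% and 5.78%. In all 6 tiles WT replicate 3 lay below the other WT libraries, as the rule requires. It was 50% in the first tile and 6.40% to 26.8% in the others. The W796A mean ran from 15.6% to 31.9% over the tiles. The run at chr10:27818001-27826000 also has 6 members in 6 usable tiles, 198243 bp from Lama2, a laminin chain gene. It had 63.6%, 68.2% and 23.5% in WT, 24.4%, 50.1% and 36.3% in W796A and 56.6%, 41.8% and 57.8% in W465A/W796A. The group at chr3:6297001-6306000 has 5 members in 8 usable tiles, 309418 bp from 1700008P02Rik. It had 51.4%, 69.0% and 22.8% in WT, 19.5%, 39.1% and 23.1% in W796A and 56.7%, 37.1% and 52.4% in W465A/W796A. In all 3 groups W465A/W796A replicates 1 and 3 lay above every W796A library, and replicate 2 below W796A replicate 2.

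**Figure D4:**
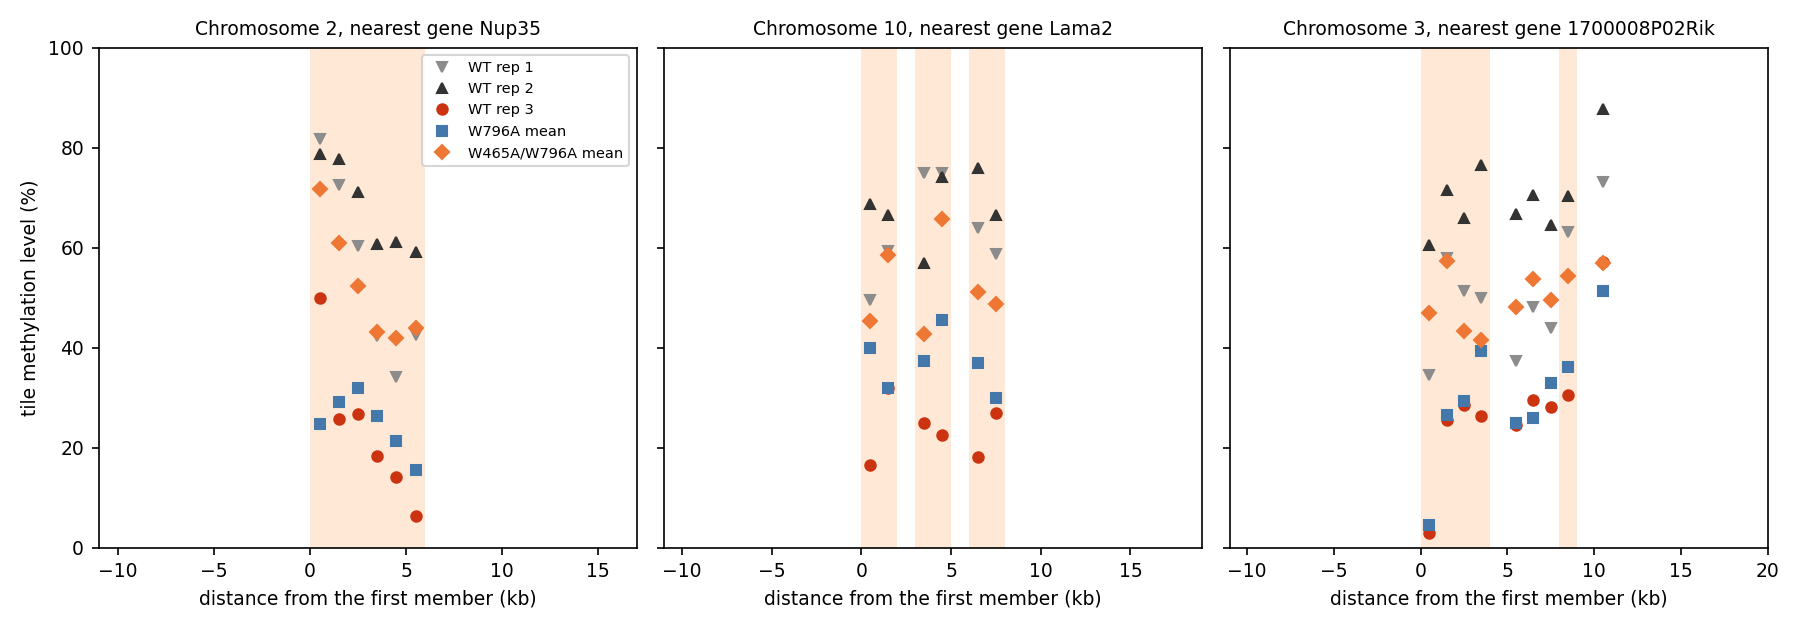
Tile methylation level (vertical axis, %) against distance from the first member (horizontal axis, kb) in the 3 largest groups of members, shaded where a tile is a member, with each WT library and the means of 3 W796A and 3 W465A/W796A libraries. WT replicate 3 lies between 2.88% and 50% at the members of the chromosome 2 and chromosome 3 groups, and W465A/W796A lies above W796A in every member shown.

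The 6 members with the most reads were all at least 79.4% masked, and their gaps were 20.3 to 45.2 points. The tile at chr4:75355001-75356000, intergenic and 76696 bp from Dmac1, a mitochondrial complex I assembly gene, had 15 usable CpGs and 403 to 1432 reads per library. Its level was 65.1%, 76.3% and 19.8% in WT, 18.5%, 26.3% and 18.8% in W796A and 61.0%, 38.2% and 52.9% in W465A/W796A. With W465A it was 28.1%, 23.6% and 24.5%, with W464A/W465A 20.9%, 22.0% and 8.95%, and with the triple mutant 22.4%, 22.3% and 25.8%. WT replicate 3 lay among the W465A and W796A libraries, and all 3 W465A/W796A libraries lay above them. In the quasi-binomial test the W465A/W796A level was 29.9 points above W796A (adjusted p = 0.00124) and 25.3 points above W465A (adjusted p = 0.00979).

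The tile at chr5:134028001-134029000, whose window is printed above, is intergenic, 70711 bp from Castor2, a relative of the arginine sensor of the mTOR pathway. Over 36 usable CpGs it had 52.2%, 69.8% and 18.6% in WT, 16.05%, 24.1% and 21.3% in W796A, and 50.8%, 28.7% and 51.6% in W465A/W796A. Again every W465A/W796A library lay above every W796A library, with a difference of 24.7 points (quasi-binomial test, adjusted p = 0.00277). The tile at chr2:55347001-55348000, nearest the potassium channel gene Kcnj3, had 63.3%, 79.9% and 35.8% in WT, 25.1%, 43.5% and 30.01% in W796A and 64.4%, 45.9% and 58.0% in W465A/W796A. Its difference from W796A was 22.2 points (quasi-binomial test, adjusted p = 0.00974). The tiles in an intron of Grxcr1, needed for hair cell bundles of the inner ear, and nearest A730009L09Rik differed by 13.1 and 16.97 points (adjusted p = 0.0468 and 0.0354 by the same test).

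The tile in an intron of Zp3r, a sperm protein gene, at chr1:130600001-130601000, went another way. It was the deepest, with 638 to 2451 reads per library over 34 usable CpGs and a median context of 391 copies. It had 35.8%, 58.8% and 15.4% in WT, 13.6%, 52.7% and 30.7% in W796A and 36.7%, 13.2% and 20.2% in W465A/W796A. The last 2 groups overlapped, with a difference of -6.38 points (quasi-binomial test, adjusted p = 0.466).

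Among members with at least 50 reads in every WT library, the largest gaps were 60.2, 55.6 and 54.0 points. The first was at chr6:35778001-35779000, 238113 bp from Mtpn, with 72.6%, 78.6% and 12.4% in WT, 22.9%, 38.7% and 17.5% in W796A and 57.1%, 40.9% and 60.6% in W465A/W796A. The tile at chr2:102609001-102610000 overlaps the body of Pamr1, a secreted protein gene, and an annotated exon, and was 75.1% masked. It had 66.7%, 72.3% and 11.1% in WT, 18.9%, 17.2% and 8.40% in W796A and 48.9%, 27.8% and 42.0% in W465A/W796A. The tile at chr9:18009001-18010000, 282125 bp from Chordc1, a cochaperone gene, had 80.8%, 88.8% and 26.8% in WT over 33 usable CpGs. It had 24.4%, 38.1% and 29.5% in W796A, 59.0%, 47.0% and 60.4% in W465A/W796A and 39.5%, 23.0% and 26.6% in W465A. In these 3 tiles every W465A/W796A library lay above every W796A library, and the differences of 25.4, 24.1 and 23.6 points passed the quasi-binomial test (adjusted p = 0.0481, 0.0324 and 0.0146).

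The members with the largest called differences between mutants included unique and repeated sequence. W465A/W796A exceeded W465A by 61.7 points at chr5:135931001-135932000 (quasi-binomial test, adjusted p = 0.00955). This tile overlaps the body of Ywhag and an annotated exon, and was 2.7% masked. It had 87.2%, 52% and 64% against 15%, 4% and 12%. A fully masked tile 7198 bp from 9130204L05Rik, at chr3:91098001-91099000, followed with 58.1 points (adjusted p = 0.0184 by the same test). Against W796A the largest differences were decreases, in tiles with a median context of 1 copy. The tile at chr1:134436001-134437000, 2650 bp from the adiponectin receptor gene Adipor1, had 36%, 5.13% and 25% with W465A/W796A and 66.7%, 86.1% and 83.3% with W796A. It fell by 54.7 points (quasi-binomial test, adjusted p = 0.00247), and 15 to 75 reads per library support it. The tile at chr13:97014001-97015000, 6864 bp from 1700029F12Rik, fell by 52.6 points (adjusted p = 0.0067 by the same test).

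Near the 20-point threshold members and other tiles had similar WT levels. The members closest inside it had gaps of 20 points, and 15 and 18 reads in their shallowest WT library. The first, at chr1:13104001-13105000, is 8457 bp from Prdm14, a regulator of pluripotency and germ cells, and had 33.3%, 53.8% and 13.3% in WT. The second, at chr1:34520001-34521000, is 14648 bp from Cfc1, a Nodal co-receptor gene, and had 86.7%, 92.2% and 66.7%. The tiles closest outside had gaps of 19.97 points. They lie in an intron of Arid1a, a chromatin remodelling subunit gene (34.8%, 50% and 14.8%), and in an intron of Uhrf1, whose product recruits DNMT1 to replicated DNA (78.7%, 84.8% and 58.7%).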

How the data were processed

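The deposited table holds, per the file headers, 2 counts for each CpG in each library, of methylated reads and of all reads. The deposited counts are whole and not normalized. Per the submitters' processing notes, cutadapt 1.2.1, Bismark 0.18.1 and Bowtie 1.2 were used and builds mm10 and GRCm38 are named, with roles, duplicate removal and the treatment of reads with several matches not given in the sources used here. The 21867550 positions equal every CpG of the 21 GRCm38 chromosomes. All 36 count columns were used, with 59776439 to 138978763 CpG calls per library. Reads are not counted by molecule.

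CpGs with at least 5 reads in all 18 libraries were summed over 1 kb tiles with at least 3 such CpGs. Soft-masking and copies of short and long CpG contexts came from the RefSeq GRCm38 sequence, and genes from GENCODE. The main test was a quasi-binomial logistic model of 5 mutant groups (15 libraries, 10 residual degrees of freedom) in Python 3.11.15, numpy 2.4.6 and scipy 1.17.1. Overdispersion was squeezed across tiles (prior 3.25, 5.57 degrees of freedom), followed by an F test and Benjamini-Hochberg adjustment. The model was tested on simulated data. Limma 3.58.1 in R 4.3.3 on log2 ratios with 0.5 added, other coverage, gap and tile settings, a replicate block and leaving out libraries were alternatives.

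The members, gene families, alternatives and contrasts were chosen with earlier results of these data known. Named tiles are the 6 with the most reads in their shallowest WT library, the 3 with the largest gap at 50 or more reads, the 3 largest groups, the 2 largest called differences of each contrast without overlap, and the 2 closest on either side of the threshold. The contexts were chosen after their values were seen.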

Additional observations from a re-analysis of the deposited data

How the results depend on the processing

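The number of members was 449 at a coverage minimum of 10 reads, 3326 with a gap of 15 points, 547 with 30 points, 1058 in 5 kb tiles and 692 with 50 reads in every WT library. Their median masked share exceeded that of tiles that could have passed by 17.5 points, and by 63 at 10 reads, 41.1 with the 30-point gap and 67.8 with 50 reads. The mean level was 35.9% with W796A and 13.7% with W464A/W465A at 10 reads, and 35.9% and 13.1% with 50 reads; other groups and settings moved by less than 1 SD. Without single libraries (added after seeing the data) it ranged from 43.7% to 55.2% with W796A and from 42.4% to 49.7% with W465A/W796A.

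Of the members, W465A/W796A was called above W465A in 299 of 449 at 10 reads (66.6%, against 24.1% of all tiles), 572 without squeezing (13.9% of all tiles) and 0 to 1100 without single libraries (0% to 37.9%). Against W796A, higher calls were 98 of 449 at 10 reads (21.8%, against 0.446% of all tiles), 88 with a 25-point minimum (all tiles 0.0995%), 72 with all 18 libraries (0.093%), 113 without squeezing (0.14%), 49 with limma (0.0724%) and 65 to 214 without single libraries (0.0788% to 0.299%). Lower calls were 17 at 10 reads (3.79%, against 17.4%), 100 without squeezing (all tiles 17%) and 23 to 534 without single libraries (5.17% to 65.2%). The other contrasts had 0 calls in both directions in every setting run. The cause of these shifts was not tested, except that a minimum of 10 reads leaves fewer tiles, 37193.

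A replicate block left 767 higher calls against W465A (all tiles 21.7%), and 136 higher and 99 lower against W796A (0.17% and 18.4%). No label says that a number pairs libraries, and in no pair of groups compared by a test did every same-numbered pair of libraries have deviations with r above 0.1 (highest 0.121, against 0.151 between different numbers). Depth is a limit for 683 of the 1829 members, which had under 30 reads in their shallowest WT library.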
